A study of Mus musculus with 550 samples.

Results

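Single cells of embryoid bodies (EBs) that lacked Dnmt3b were set against cells of EBs that lacked Dnmt3a, both taken at day 9 of differentiation. Both lines were homozygous knockouts made in E14, a mouse embryonic stem cell (ESC) line of strain 129/Ola, and are called 3BKO and 3AKO here. The wild type (WT) EBs of the same line and day served as the common reference. Members were all wells labelled as single day 9 cells of either mutant, in both library batches, that had at least 50000 assigned reads, at least 2000 detected genes and at most 50% of reads from mitochondrial genes. Of 186 such wells 155 were kept, 67 of 3BKO and 88 of 3AKO, and 89 WT cells were kept for reference. The whole series held 550 cells, of which 486 passed the same filter. Genes of the Y chromosome were left out.

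EBs are aggregates that ESCs form after LIF is withdrawn, and their cells leave the pluripotent state through an epiblast-like stage towards the germ layers. Dnmt3a and Dnmt3b encode the DNA methyltransferases that set new CpG methylation as this exit takes place. Methylation set at that time is known to keep promoters of germline genes silent in somatic cells, and pluripotent cells themselves are described as naive (expressing genes such as Zfp42 and Klf5) or primed (expressing genes such as Fgf5 and Pim2).

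All EBs were grown in low-attachment plates in the same medium without LIF, and ESCs before that in serum with LIF. Cells were sorted 1 to a well and their full-length cDNA was made by a Smart-seq2 variant, so that reads carry no molecular identifiers. At day 9 each genotype filled 1 plate of its own, hence plate and genotype cannot be told apart. The study used more than 1 clone of each mutant and pooled EBs, but the labels do not say which clone a cell came from. Batch 1 (plate columns 1 to 8) and batch 2 (columns 9 to 12) are wells of the same plates. The labels do not say whether they hold separate cultures. Each genotype was therefore handled as 1 sample, no test was run, and intervals (exact, 95%) cover counting error only.

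The kept cells held 30287278 reads in 3BKO, 23858355 in 3AKO and 34821361 in WT. The median cell had 336187, 237448 and 363652 reads in that order. In batch 2 the median 3BKO cell had 692321 reads against 308227 in 3AKO, and these 21 cells gave 16249575 of the 3BKO reads. Detected genes (5879, 5904 and 5652) and mitochondrial reads (3.98%, 4.39% and 4.14%) had similar medians. Fewer 3BKO wells passed, 67 of 93 against 88 of 93 in 3AKO and 89 of 91 in WT.

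The deleted genes checked the labels. Dnmt3b had 16.4 CPM (the reads of a gene per 1000000 reads of its group) in 3BKO, 252 in 3AKO and 167 in WT, and a read was seen in 14 of 67, 68 of 88 and 59 of 89 cells. Dnmt3a had 25.2 CPM in 3AKO, 63.03 in 3BKO and 166 in WT, with reads in 42, 49 and 80 cells. Both genes were lowest in the line named for them, in each batch. Reads remained in both cases, and which exons were deleted is not given in the labels. Exons of Dnmt3a and of its antisense gene Dnmt3aos overlap, so its reads cannot all be assigned to it.

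The labelled material was checked against 18 epiblast (Epi), 22 meso-endoderm (ME) and 22 ectoderm (Ect) markers. Summed Epi markers had a median of 12455 CPM per cell in 3BKO (range 2474 to 37994), 9421 in 3AKO (2.73 to 24054) and 9978 in WT (2.45 to 27414). No Epi marker was at 0 in any of the 3 groups as a whole. Summed ME markers had medians of 33.6, 25.03 and 0 CPM, with highest cells of 671, 4767 and 7636 CPM, and Ect markers had medians of 681, 577 and 591 CPM. Over 1000 CPM of ME markers were seen in 0 of 67 3BKO, 2 of 88 3AKO and 3 of 89 WT cells. At the group level 6 ME and 10 Ect markers were at 0 in 3BKO, against 4 and 1 in 3AKO. Most cells of both mutants thus had reads of the Epi list at day 9, and high meso-endoderm markers were limited to a few cells of 3AKO and WT. The Epi list holds both naive genes (Zfp42) and primed genes (Fgf5 and Pim2), so its sum does not tell these states apart. Dppa5a alone gave 5059 of the 12208 CPM pooled over the list in 3BKO. The Ect list is mixed too, as it holds Otx2 and Sox2, which are counted among primed and core pluripotency genes below. Otx2 alone gave 231 of the 668 CPM pooled over the Ect list in 3BKO. Summed neural ectoderm genes, a separate list, had medians of 44.4 CPM per cell in 3BKO, 111 in 3AKO and 176 in WT.

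The promoters of germline genes carry the CpG sites on which de novo methyltransferases act, and the genes below parted the mutants or left WT in both, as described further on. They are shown as the 250 bases before the transcription start (RefSeq, GRCm38.p6), read 5′ to 3′ on the gene's strand, with each CpG in capitals. Dazl (chr17:50293621-50293870, minus strand), an RNA-binding protein of germ cells, was higher in both mutants than in WT. Smc1b (chr15:85131958-85132207, minus strand), a meiotic cohesin subunit, Hormad1 (chr3:95559427-95559676, plus strand), a protein of the meiotic chromosome axis, and Mael (chr1:166238745-166238994, minus strand), a factor of transposon silencing by piRNAs, were higher in 3AKO. Rpl10l (chr12:66284402-66284651, minus strand), a retrogene copy of a ribosomal protein gene used in the testis, was higher in 3BKO.
Dazl: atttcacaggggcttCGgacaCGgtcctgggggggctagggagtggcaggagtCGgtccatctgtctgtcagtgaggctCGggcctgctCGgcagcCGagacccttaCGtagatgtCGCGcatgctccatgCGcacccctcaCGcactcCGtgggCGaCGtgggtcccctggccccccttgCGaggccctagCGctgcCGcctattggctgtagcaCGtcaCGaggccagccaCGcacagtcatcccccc
Smc1b: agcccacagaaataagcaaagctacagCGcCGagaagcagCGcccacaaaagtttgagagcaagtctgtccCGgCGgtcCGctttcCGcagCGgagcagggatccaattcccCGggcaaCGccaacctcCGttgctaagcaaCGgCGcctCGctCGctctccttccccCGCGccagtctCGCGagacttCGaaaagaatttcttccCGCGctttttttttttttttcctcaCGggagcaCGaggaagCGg
Hormad1: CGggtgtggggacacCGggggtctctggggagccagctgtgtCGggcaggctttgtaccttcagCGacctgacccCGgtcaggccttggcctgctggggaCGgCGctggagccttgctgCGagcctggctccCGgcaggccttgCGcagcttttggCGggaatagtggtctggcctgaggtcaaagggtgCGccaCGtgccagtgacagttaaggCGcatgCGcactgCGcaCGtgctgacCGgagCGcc
Mael: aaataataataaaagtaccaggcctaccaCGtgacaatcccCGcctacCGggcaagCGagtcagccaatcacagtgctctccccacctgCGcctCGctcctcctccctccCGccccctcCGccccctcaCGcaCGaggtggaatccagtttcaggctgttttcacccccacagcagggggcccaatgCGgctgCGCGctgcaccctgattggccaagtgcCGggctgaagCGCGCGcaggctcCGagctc
Rpl10l: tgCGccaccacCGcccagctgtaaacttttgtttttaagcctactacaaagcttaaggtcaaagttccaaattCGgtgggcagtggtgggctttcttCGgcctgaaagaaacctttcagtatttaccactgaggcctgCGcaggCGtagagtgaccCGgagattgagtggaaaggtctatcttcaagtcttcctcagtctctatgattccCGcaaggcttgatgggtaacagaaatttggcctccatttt
These windows held 20, 25, 19, 18 and 8 CpGs. The median over all 32851 promoters in the table was 6, and over the 6632 promoters matched to a tested gene it was 17. Over the 14 tested germline genes with a promoter in the table it was 13.5, so the windows shown do not stand for the list. The letters TCCCGC, the core of the E2F6 motif, were searched on both strands and occurred in the windows of Smc1b, Hormad1, Mael and Rpl10l, in 8 of the 14 tested germline genes with a promoter in the table, and in 16.9% of all promoters (32.2% of those of tested genes). The E-box CACGTG, which does not overlap that motif, occurred in those of Hormad1 and Mael, in 5 of the 14 and in 6.02% of all (9.24% of those of tested genes). Neither set of letters occurred in the Dazl window. Since 72.6% of the tested genes had a promoter in the table, no comparison of promoters was made between sets of called genes.

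Next, all genes were compared between the mutants. A gene was called when its log2 ratio (of CPM + 1) was at least 1 in size with the same sign in each batch alone, with a read in at least 20% of cells of either mutant in each batch and at most 25% of the reads of the higher group from 1 cell. Of 9135 genes tested, 324 (3.55%) were higher in 3BKO and 414 (4.53%) were higher in 3AKO. The median log2 ratio of those called was 1.64 and -1.79, and that of all tested genes 0.00 (-0.0015). Of the called genes 122 and 149 share exon bases with another gene, and 4.32% and 4.83% lay on the X chromosome, beside 3.26% of all tested genes. The counts are descriptions of these libraries: the share called is what chosen lists are read against below.

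The 2 batches of wells gave like directions. Of 642 genes picked as higher in 3BKO from batch 1 alone, 85.05% had the same sign in batch 2 and 50.5% were past 1 there, while 16.8% of all tested genes were. Of 796 picked as higher in 3AKO, 80.7% kept the sign and 52.01% were past -1, beside 17.4% of all. Picking in batch 2 and reading batch 1 gave 84.8% and 82.3% of the same sign. As these wells share their plates and the labels name no cultures, this shows agreement between wells. Agreement between cultures cannot be read from it.

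**Figure D1:**
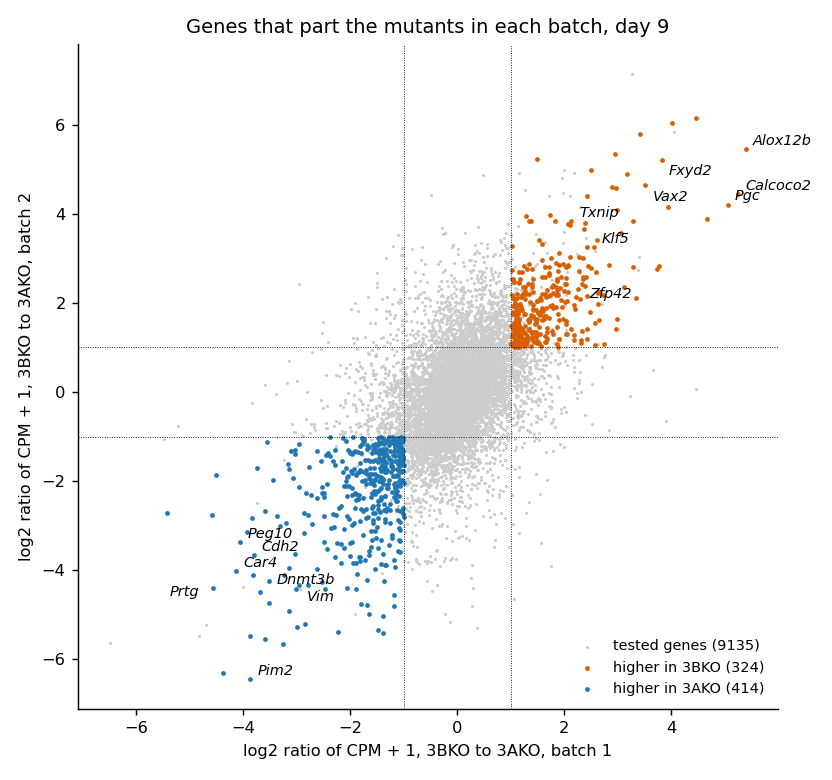
Each point is 1 of 9135 tested genes, with the log2 ratio of CPM + 1 of 3BKO to 3AKO in batch 1 (x axis) and in batch 2 (y axis). The 324 genes called higher in 3BKO (orange) and the 414 called higher in 3AKO (blue) lie past 1 or -1 in both batches, with Alox12b and Calcoco2 near one end and Pim2 and Prtg near the other.

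Pluripotency genes differed between the mutants. Of 18 naive pluripotency genes 15 were tested, 6 were higher in 3BKO (Zfp42, Klf4, Klf5, Tbx3, Prdm14 and Pecam1) and 0 in 3AKO, beside the 3.55% and 4.53% called among all genes. The list had a median log2 ratio of 1.16, with 1.03 in batch 1 and 1.98 in batch 2. Summed over the list, cells had 754 to 12291 CPM in 3BKO (median 4981), 0 to 6996 in 3AKO (median 1563) and 0 to 9241 in WT (median 2132). The range in 3BKO started well above 0, whereas some cells of 3AKO and WT had no read of any naive gene.

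Zfp42, which encodes the naive marker Rex1, had 2269 CPM in 3BKO, 461 in 3AKO and 963 in WT (log2 ratio of 3BKO to 3AKO 2.30, with 2.34 and 2.44 in batches 1 and 2). Its cells ranged from 178 to 7893 CPM in 3BKO (median 2495) and from 0 to 3716 in 3AKO (median 250). Of the 67 3BKO cells 66 were above the median 3AKO cell (98.5%, interval 91.96 to 99.96%). A read was seen in 66 of 88 3AKO cells, so the difference was one of level as well as of the number of cells with a read.

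Klf5, a zinc finger factor that maintains naive ESCs, had 385 CPM in 3BKO, 56.5 in 3AKO and 79.3 in WT (2.75, with 2.56 and 3.26). All 67 3BKO cells had a read, from 20.9 to 1058 CPM, against 55 of 88 3AKO cells. After thinning each cell to 50000 reads these shares were 100% and 53.4%. Tbx3 (147, 28.4 and 25.3 CPM in 3BKO, 3AKO and WT), a T-box factor, and Prdm14 (119.9, 25.8 and 51.003 CPM), which represses the onset of de novo methylation in naive cells, had log2 ratios of 2.33 and 2.17, though Tbx3 shares exon bases with Tbx3os1. Klf4 had 51.3 CPM in 3BKO and 13.9 in 3AKO, and Pecam1 136 and 31.7.

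Among the other naive genes, Klf2 (109.5 and 125 CPM in 3BKO and 3AKO) and Esrrb (75.0 and 52.7) differed by less than 1 on the log2 scale in either batch. Nr5a2 had ratios of opposite sign in the batches (2.51 and -0.72). Thus the naive list was not uniform. Of the 11 core pluripotency genes Nanog alone was called, with 1004 CPM in 3BKO, 438 in 3AKO and 561 in WT (1.20, with 1.12 and 1.46). Pou5f1, the Oct4 gene, had 110.1 and 85.002 CPM in 3BKO and 3AKO, and Sox2 82.3 and 32.02, the latter with log2 ratios of 0.97 in batch 1 and 1.89 in batch 2.

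The primed epiblast genes showed the opposite picture. Of 17 listed 10 were tested, 0 were higher in 3BKO and 4 in 3AKO (Pim2, Car14, Cdh2 and Sall2), beside the 3.55% and 4.53% of all genes. The median log2 ratio was -2.50 (-2.02 and -2.93 in the batches). Pim2, a serine/threonine kinase gene, had 14.8 CPM in 3BKO, 499 in 3AKO and 409 in WT (-4.98, with -3.88 and -6.44). Its highest cell had 339.9 CPM in 3BKO, 4952 in 3AKO and 3648 in WT, and the median cell had 0 in all 3. The difference lay in a subset of highly expressing cells that 3AKO and WT had and 3BKO lacked, with reads in 27 of 67 3BKO and 42 of 88 3AKO cells.

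Car14, a membrane-bound carbonic anhydrase, had 0.924, 70.7 and 91.6 CPM in 3BKO, 3AKO and WT, but shares exon bases with Aph1a. Sall2, a zinc finger gene, had 0.693, 19.99 and 43.2 CPM. Cdh2, N-cadherin, had no read in any 3BKO cell and 12.4 CPM in 3AKO, where 24 of 88 cells had a read (at least 125-fold higher, against a floor of 3 reads over the 3BKO group). Fgf5, singled out after its values were seen, had 2.11 CPM in 3BKO, 82.2 in 3AKO and 61.1 in WT. It was not tested, as it was seen in under 20% of cells of both mutants in at least 1 batch. Over 25% of its 3AKO reads came from 1 cell. Not every primed gene was lower: Otx2, which shares exon bases with Otx2os1, had 231 CPM in 3BKO and 120.1 in 3AKO.

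**Figure D2:**
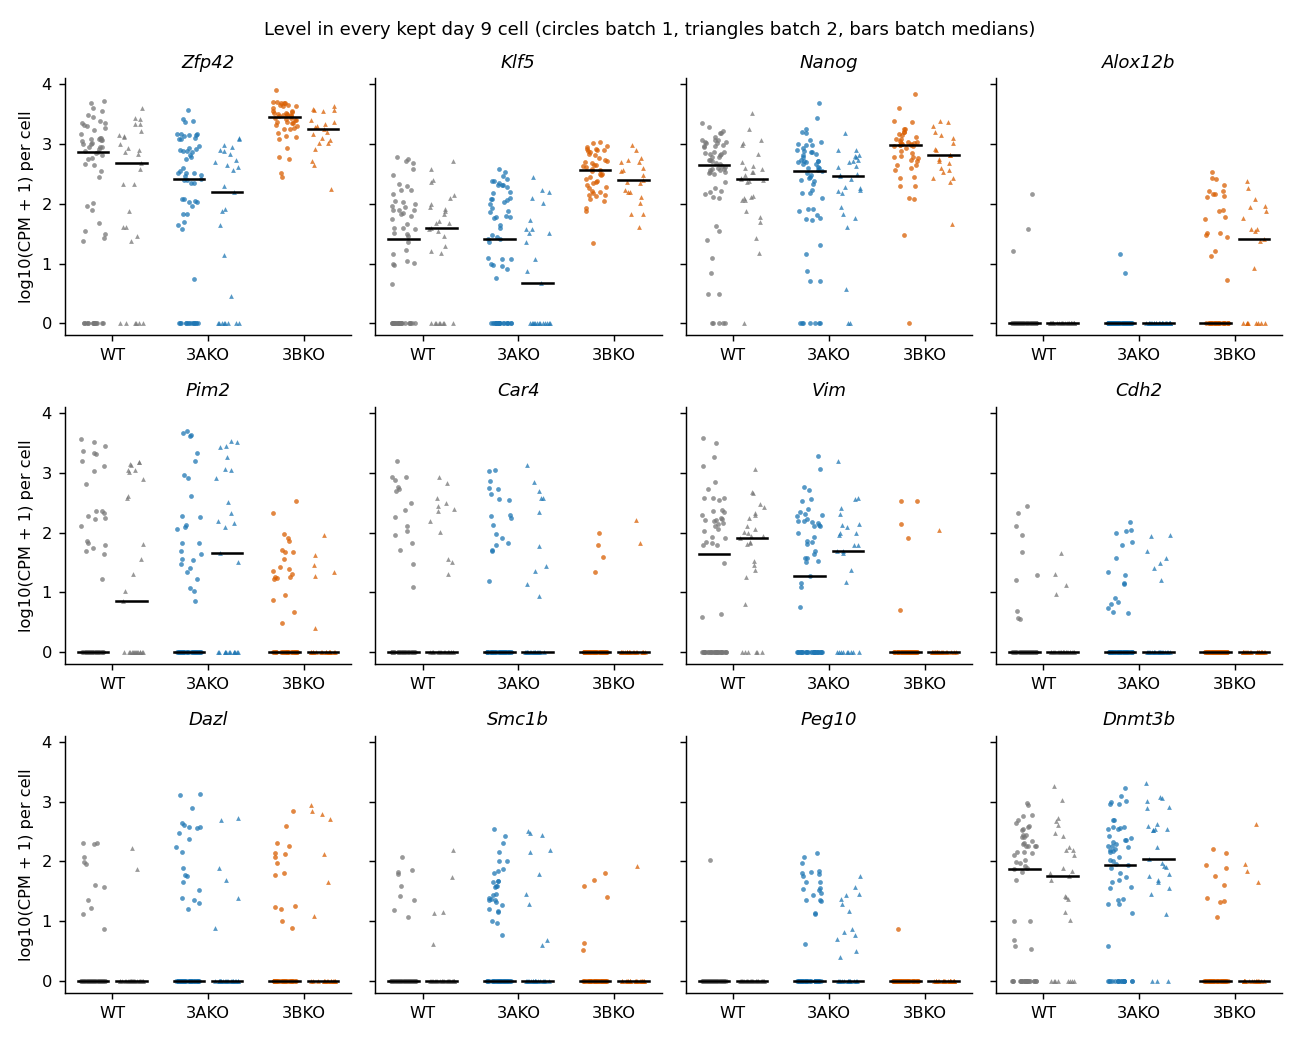
Each point is 1 kept day 9 cell, with log10(CPM + 1) of 12 genes on the y axis and WT, 3AKO and 3BKO on the x axis (circles batch 1, triangles batch 2, bars the batch medians). Zfp42 and Klf5 have reads in all 67 3BKO cells, whereas Pim2, Car4 and Vim have high cells in WT and 3AKO that are scarce in 3BKO, and Dnmt3b is seen in 14 of 67 3BKO cells.

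Genes tied to leaving the epithelial, pluripotent state differed in the same direction in part. Of 18 cadherin and epithelial-mesenchymal genes 11 were tested, and Cdh2 and Vim were higher in 3AKO, beside 4.53% of all genes. Vim, the mesenchymal intermediate filament vimentin, had 9.64 CPM in 3BKO, 117 in 3AKO and 233 in WT (-3.47, with -2.96 and -4.33), with reads in 6 of 67, 52 of 88 and 56 of 89 cells. Cdh1, E-cadherin, had 123 CPM in 3BKO and 67.7 in 3AKO, with ratios under 1 in both batches. The list as a whole had a median of -0.42.

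FGF signalling, which drives the exit from naive pluripotency, was read through its ligands, receptors and targets. Of 21 genes 14 were tested, 5 were higher in 3AKO (the targets Fos, Egr1, Etv1, Spred1 and Spry1) and 0 in 3BKO, beside 4.53% and 3.55% of all genes. The median was -0.98 (-0.93 and -0.70). Fos, an immediate early gene, had 59.6 CPM in 3BKO, 323 in 3AKO and 61.03 in WT. Here the 3AKO cells stood apart from WT rather than 3BKO. Spred1, an inhibitor of the pathway, had 1.52, 9.77 and 28.2 CPM, and the target Dusp6 had 175 and 228 CPM in 3BKO and 3AKO and was not called. Fgf4, a ligand of pluripotent cells, had 188 and 106 CPM. Spry1 shares exon bases with another gene. The 3AKO cells low in Epi markers, described further on, held 8.50% of all 3AKO reads. They held 38.6% of its Spry1 and 30.9% of its Spred1 reads, against 15.8% for Etv1 and 4.20% for Fos. Without these cells Spry1 had 11.6 CPM in 3AKO, against 5.28 in 3BKO.

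Outside pluripotency, the genes most strongly higher in 3BKO were of mixed kinds. Alox12b, an epidermal lipoxygenase, had 44.9 CPM in 3BKO, 0.0838 in 3AKO and 1.98 in WT (5.41, with 5.39 and 5.47), with reads in 34 of 67, 2 of 88 and 3 of 89 cells. Alox12e, another epidermal member of the family, had 95.2, 3.90 and 6.03 CPM and reads in 36, 3 and 5 cells. These were the 2 tested members of 8 lipoxygenase genes, and nearly all 3AKO and WT cells had no read of either. They lie on chromosome 11 (69156989 to 69169792 and 70315610 to 70322628, GRCm38), and the Alox12b window before the start holds 11 CpGs, that of Alox12e 3.

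Calcoco2, a selective autophagy receptor, had 330.3 CPM in 3BKO, 10.4 in 3AKO and 72.7 in WT (4.87), with a median 3BKO cell of 165 CPM. Fxyd2, a regulatory subunit of the sodium pump, had 181, 9.68 and 43.4 CPM (4.09) and reads in 58 of 67 3BKO cells against 14 of 88 in 3AKO. Pgc, the pepsinogen progastricsin, had 32.5, 0.335 and 8.41 CPM (4.65). For these 3 genes WT lay between the mutants.

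Slc6a12, a betaine transporter, had 52.4, 0.838 and 1.23 CPM in 3BKO, 3AKO and WT, its 3AKO reads all in 1 cell, and Cd80, a co-stimulatory ligand, had 28.0, 0.671 and 2.99. Vax2, a homeobox gene of the ventral eye field, differed in the other sense: 35.6 CPM in 3BKO and 38.3 in WT were close, and 3AKO was low at 1.97 (3.62). Txnip, an inhibitor of thioredoxin and glucose uptake, had 219, 18.5 and 115 CPM (3.49). Afap1l1, Vax2os, Dnah11 and Txnip share exon bases with other genes, and their values (log2 ratios 5.32, 3.75, 3.94 and 3.49) are uncertain for that reason.

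Of the genes most strongly higher in 3AKO, nearly all stood close to WT in 3AKO. Prtg, protogenin, a cell surface protein of the early embryo, had 0.033 CPM in 3BKO, 22.7 in 3AKO and 22.03 in WT (-4.52, with -4.57 and -4.41), with reads in 1, 37 and 24 cells. Car4, a carbonic anhydrase, had 6.74, 123 and 129.6 CPM (-4.0005). Stk39, a kinase of ion cotransport, had 0.033, 15.1 and 17.2 CPM, and Rbms1, an RNA-binding protein, 2.31, 54.3 and 39.1. Arhgef25, a guanine nucleotide exchange factor, had 0.991, 32.5 and 34.3 CPM, and Bmerb1 1.25, 44.4 and 42.8. Bag2, a co-chaperone (0.693, 38.8 and 47.7 CPM), shares exon bases with an unnamed gene. In 3BKO each of these 7 genes was seen in at most 6 of 67 cells.

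The exception was Peg10, a retrotransposon-derived imprinted gene, with 14.4 CPM in 3AKO, 0.066 in 3BKO and 1.18 in WT (-3.85). It was seen in 34 of 88 3AKO cells against 1 of 67 and 1 of 89. Its neighbour Sgce, imprinted with it (chromosome 6, 4674350 to 4747207, beside Peg10 at 4747306 to 4760517), had 25.3, 2.87 and 10.8 CPM in 3AKO, 3BKO and WT, with reads in 28, 2 and 5 cells. Most Sgce reads of WT and 3BKO lay in the cells that stood apart, described further on: without cells low in Epi markers it had 15.6 CPM in 3AKO and 1.56 in WT, and without 2-cell-like cells 0.158 in 3BKO. The values of Peg10 were then 11.4, 0 and 0 CPM in 3AKO, WT and 3BKO. Of 29 imprinted genes 18 were tested and these were the 2 called, beside 4.53% of all genes called higher in 3AKO, with a list median of -0.25.

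Germline genes did not lie on one side. Of 34 listed 15 were tested, 1 was higher in 3BKO (Rpl10l) and 5 were higher in 3AKO (Smc1b, Mael, Hormad1, Gpat2 and Tuba3a), beside the 3.55% and 4.53% of all genes, and Dazl was higher than WT in both. The median log2 ratio was 0.02, but -1.02 in batch 1 and -0.02 in batch 2, so the list has no settled direction. Summed over the list, the median cell had 864 CPM in 3BKO, 591 in 3AKO and 447 in WT. The ratio was above 0 for 8 tested members and below 0 for 7. Stra8, picked after its values were seen, was tested and not called. It passed the detection limit, so it missed the limit on a batch ratio or on the top cell. Its difference may therefore rest on 1 batch or 1 cell. Without cells low in Epi markers, described further on, Stra8 had 244 CPM in 3BKO, 10.03 in 3AKO and 25.1 in WT. Of its 3BKO reads 15.0% were in the 2-cell-like cells.

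Smc1b, whose CpG-rich promoter is shown above, had 42.5 CPM in 3AKO, 4.33 in 3BKO and 6.75 in WT (-3.03, with -2.18 and -3.85), with reads in 39 of 88, 7 of 67 and 14 of 89 cells. Hormad1 had 67.1, 23.5 and 18.3 CPM (-1.47, with -1.12 and -1.85), with reads in 39, 13 and 18 cells. For both, 3BKO lay near WT and 3AKO above it. Tuba3a shares exon bases with another gene. Mael had 20.7, 2.84 and 13.1 CPM, with 0.335 in WT batch 2 against 19.7 in WT batch 1, so its place relative to WT depended on the batch. Rpl10l had 216 CPM in 3BKO, 56.5 in 3AKO and 74.5 in WT (1.92, with 1.64 and 2.59) and was seen in 63 of 67 3BKO cells.

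**Figure D3:**
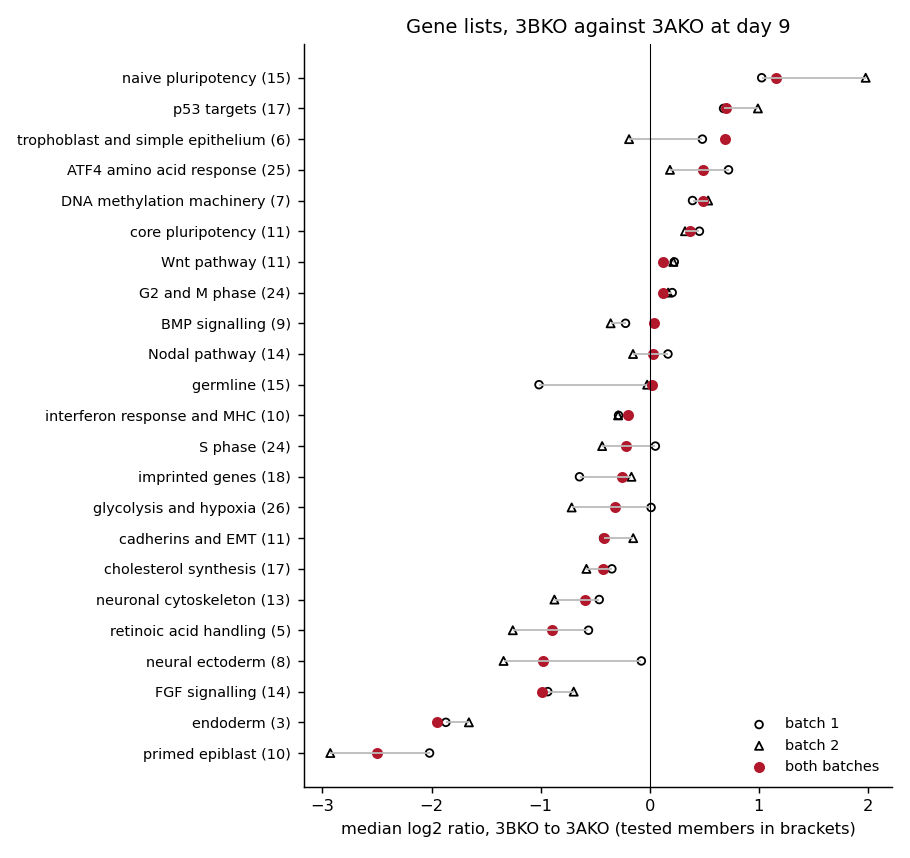
Red points give the median log2 ratio of 3BKO to 3AKO over the tested members of each gene list with at least 3 of them (their number in brackets), circles batch 1 and triangles batch 2. Naive pluripotency (1.16) and primed epiblast (-2.50) lie at opposite ends, and germline genes (0.02) have batch values of -1.02 and -0.02.

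Stress and growth genes differed less, and their counts stand beside the 3.55% (higher in 3BKO) and 4.53% (higher in 3AKO) called among all genes. Of 31 genes of the ATF4 amino acid response 25 were tested and 4 were higher in 3BKO (Nupr1, Aars, Asns and Mthfd2), with a median of 0.49 (0.72 and 0.18). Asns, asparagine synthetase, had 794 CPM in 3BKO, 341 in 3AKO and 358 in WT, and Mthfd2, an enzyme of mitochondrial folate metabolism, 190.2, 49.8 and 100.6. Of 18 p53 targets 17 were tested, 4 were higher in 3BKO (Cdkn1a, Perp, Sesn1 and Zmat3) and Tnfrsf10b was higher in 3AKO, with a median of 0.70 (0.68 and 0.99). Cdkn1a, the cell cycle inhibitor p21, had 187 CPM in 3BKO, 93.6 in 3AKO and 129.95 in WT, and Perp, a desmosome-associated effector, 82.1, 19.7 and 26.5. Cdkn1a and Aars share exon bases with other genes.

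Of 28 glycolysis and hypoxia genes 26 were tested. Counts in this and the following lists stand beside the 3.55% (higher in 3BKO) and 4.53% (higher in 3AKO) called among all genes. Pfkp, a phosphofructokinase, had 1169 CPM in 3BKO, 437 in 3AKO and 419 in WT, and 65 of 67 3BKO cells were above the median 3AKO cell. Pdk1, which keeps pyruvate out of mitochondria, was higher in 3AKO (80.4, 274 and 177 CPM in 3BKO, 3AKO and WT). Ndrg1, induced by hypoxia, was also higher there (24.7, 78.6 and 26.5). The list median was -0.32, with 0.01 in batch 1 and -0.72 in batch 2. Pfkp and Ndrg1 share exon bases with other genes. Of 17 cholesterol synthesis genes Cyp51 and Hmgcs1 were higher in 3AKO (list median -0.43). Exons of both overlap another gene. Of 24 S phase genes Chaf1b, a chromatin assembly subunit, was higher in 3AKO (69.01 and 164 CPM in 3BKO and 3AKO), and of 24 genes of G2 and M phase 0 were called, with medians of -0.22 and 0.12. With 4.53% of all genes called higher in 3AKO, 1 of 24 does not set the S phase list apart.

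Lineage genes were largely too sparse to compare, and their counts stand beside the 3.55% (higher in 3BKO) and 4.53% (higher in 3AKO) of all genes. Of 21 mesoderm genes 2 were tested and 0 called, and of 20 endoderm genes 3 were tested and Hhex, a homeobox gene of early endoderm, was higher in 3AKO (2.28 and 11.9 CPM). Of 24 neural ectoderm genes 8 were tested, Vax2 was higher in 3BKO and Sox11 was higher in 3AKO (3.27 and 15.9 CPM). The median was -0.98, but -0.08 in batch 1 and -1.34 in batch 2. Of 20 neuronal cytoskeleton genes 13 were tested and Crmp1, Map1b and Stmn3 were higher in 3AKO (median -0.59, with -0.46 and -0.87). Map1b, a microtubule-associated protein, had 96.9 CPM in 3BKO, 322 in 3AKO and 400 in WT and was detected in 48, 80 and 78 cells. Tfap2c, a trophoblast and germ cell factor, was called higher in 3BKO among 6 tested trophoblast genes (92.6, 37.5 and 42.2 CPM).

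Signalling lists gave few called genes, beside the 3.55% (higher in 3BKO) and 4.53% (higher in 3AKO) called among all genes. Of 16 Nodal pathway genes 14 were tested, with a median of 0.03. The ligand Nodal had 302 CPM in 3BKO and 178 in 3AKO, and the inhibitor Lefty1 209 and 452, neither called. Of 11 tested Wnt genes Tcf7l1, a repressor of naive genes, was higher in 3BKO (34.7 and 10.0 CPM). The effector Lef1 (7.99 and 39.3) and also Znrf3 (3.27 and 20.6) were higher in 3AKO. Tcf7l1 and Lef1 share exon bases with other genes. Of 9 tested BMP signalling genes Id3, a BMP target, was higher in 3AKO (55.96 and 181 CPM). Of the 10 tested genes of the interferon list Irf1 (53.6 and 182 CPM) and Bst2 (1.39 and 11.7) were higher in 3AKO, Irf1 with shared exon bases. The Rhox and fibroblast lists had 0 tested members.

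Some cells stood apart within each group, and the limits that follow were chosen after their values were seen. In 9 of 88 3AKO cells (10.2%, interval 4.78 to 18.5%) the summed Epi markers were under 1000 CPM, as in 7 of 89 WT cells, while 0 of 67 3BKO cells were, which allows a share of up to 4.48% at a floor of 3 counts (exact upper bound 5.36%). These 9 cells had a median of 2159 CPM of Ect markers, against 518 in the other 79, and 1 of them had 53352 CPM of endoderm genes. They held 8.50% of the 3AKO reads, but 46.4% of its Cdh2 and 39.6% of its Vim reads. Without such cells Cdh2 and Vim had 7.24 and 77.05 CPM in 3AKO (log2 ratio of 3BKO to 3AKO -3.04 and -2.87), Zfp42 had a ratio of 2.17, Id3 had 117 CPM in 3AKO, and 346 and 382 genes were called higher in 3BKO and in 3AKO. In WT the cells under the limit held 65.6% of the Cdh2 and 55.7% of the Vim reads. The naive and primed medians were then 1.10 and -2.27, and the endoderm median was -0.68 in place of -1.95.

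In the other direction, 10 of 67 3BKO cells (14.9%, interval 7.40 to 25.7%) had over 100 CPM of 2-cell-like genes, which mark a rare state of ESC cultures that resembles the early cleavage embryo. This was seen in 1 of 88 3AKO cells and 0 of 89 WT cells. The 3BKO cells were 6 of 46 in batch 1 and 4 of 21 in batch 2. Their level ran from 144 to 19468 CPM, mostly from Zscan4 genes, and the median 3BKO cell had 0. None of the 12 genes was tested, as each was seen in under 20% of cells of both mutants in at least 1 batch. Members of the Zscan4 cluster are near-identical copies between which the authors' counting could lose or split reads, so their single values are uncertain.

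The summed Epi markers of these 10 cells had a median of 13205 CPM, against 12455 in the other 57, but they were spread widely, from 2474 to 37994 CPM. The cells with 1308, 13070 and 19468 CPM of 2-cell-like genes had 2474, 4370 and 4762 CPM of Epi markers, near the lowest of all 3BKO cells, and the last of them had the lowest naive sum (754 CPM). They held 16.2% of the 3BKO reads and 69.7% of its Dazl reads, with a Dazl read in 9 of 10 against 13 of 57. Median Dazl was 259 CPM in them and 0 in the rest. Without cells over the limit Dazl had 29.8 CPM in 3BKO, 82.1 in 3AKO and 12.8 in WT, and the log2 ratio of 3BKO to 3AKO was -1.43 in place of 0.02. Zfp42 reads, in contrast, were 16.5% in these cells, close to their share of all reads. The germline median became -1.11 without them, whereas 323 and 433 genes were called higher in 3BKO and in 3AKO.

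**Figure D4:**
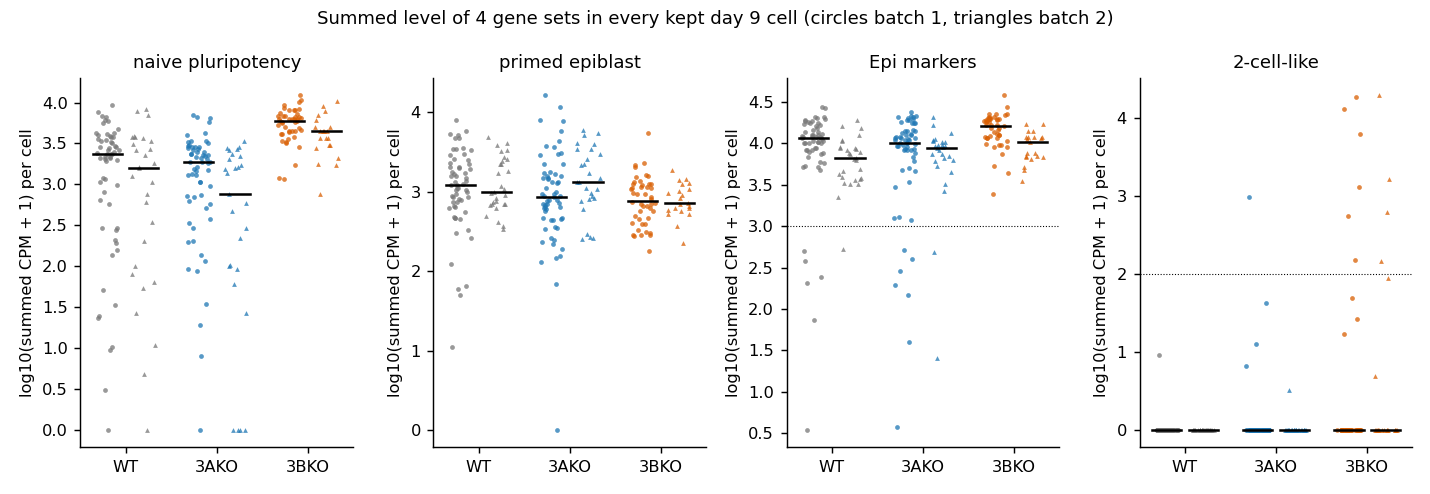
Each point is 1 kept day 9 cell, with log10(summed CPM + 1) of a gene set on the y axis and the genotypes on the x axis (circles batch 1, triangles batch 2, bars the batch medians, dotted lines 1000 CPM of Epi markers and 100 CPM of 2-cell-like genes). The 3BKO cells all lie above the Epi line, and 10 of them lie above the 2-cell-like line, against 1 of 3AKO and 0 of WT.

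Few genes left WT in the same way in both mutants. Of 8748 genes tested, 11 (0.126%) were at least 1 log2 unit above WT in both mutants and both batches and 9 (0.103%) at least 1 below. Both ratios use the same WT cells, so a chance low or high value in WT enters both. Dazl, the germ cell RNA-binding protein, had 82.2 CPM in 3BKO, 81.2 in 3AKO and 12.8 in WT, with reads in 22, 27 and 14 cells and 69.7% of its 3BKO reads in the 10 cells just described. Nxn, the redox protein nucleoredoxin, had 71.4, 44.1 and 12.7 CPM. Ripk4, an epithelial kinase, had 79.8, 29.4 and 10.3, and Fbxw7, a ubiquitin ligase subunit, 36.2, 23.7 and 6.12.

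Dnmt3l, the catalytically inactive partner of both methyltransferases, had 229 CPM in 3BKO, 128 in 3AKO and 47.1 in WT, with reads in 53, 48 and 31 cells. Its exons overlap those of Aire. Gadd45b, a stress-induced gene linked to demethylation, had 25.3, 16.01 and 6.81 CPM. Icam1, an adhesion molecule (145, 76.6 and 32.05), and Gas2l1, a cytoskeletal linker (23.9, 22.6 and 8.90), share exon bases with other genes. Pim1, Zbtb44 and the small RNA Snord49a were also called. Dazl had opposite signs between the mutants in the batches (log2 ratio of 3BKO to 3AKO -1.03 and 1.11).

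Below WT in both, Nek9, a mitotic kinase, had 5.78 CPM in 3BKO, 2.26 in 3AKO and 16.3 in WT, and Acyp1, an acylphosphatase gene that lies nearby, 2.97, 5.11 and 14.7. Of the 3BKO reads of Nek9 69.1% were in the 10 cells with 2-cell-like genes, and without these it had 2.13 CPM. Both genes lie on chromosome 12 (85299514 to 85339362 and 85272398 to 85288438). Pcgf1, a subunit of a variant Polycomb complex, had 5.88, 5.57 and 15.2 CPM, Tmem131l 13.9, 16.8 and 38.7, and Zfp948 7.26, 23.9 and 85.5. Nsd2, an H3K36 methyltransferase (4.09, 10.2 and 26.1), and Dennd2a (4.79, 5.62 and 19.3) share exon bases with other genes. Without the 2-cell-like cells, which held 62.9% of its 3BKO reads, Nsd2 had 1.81 CPM there. Dnmt3a itself was on this side, also in 3BKO (log2 ratio of 3BKO to WT -1.06 and -1.66 in the batches). Wrn was the last of the 9. These counts were unstable: thinning every cell to 50000 reads gave 4 above and 12 below, of which 1 and 3 were among the 11 and the 9, and weighting each cell equally gave 6 and 7.

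**Figure D5:**
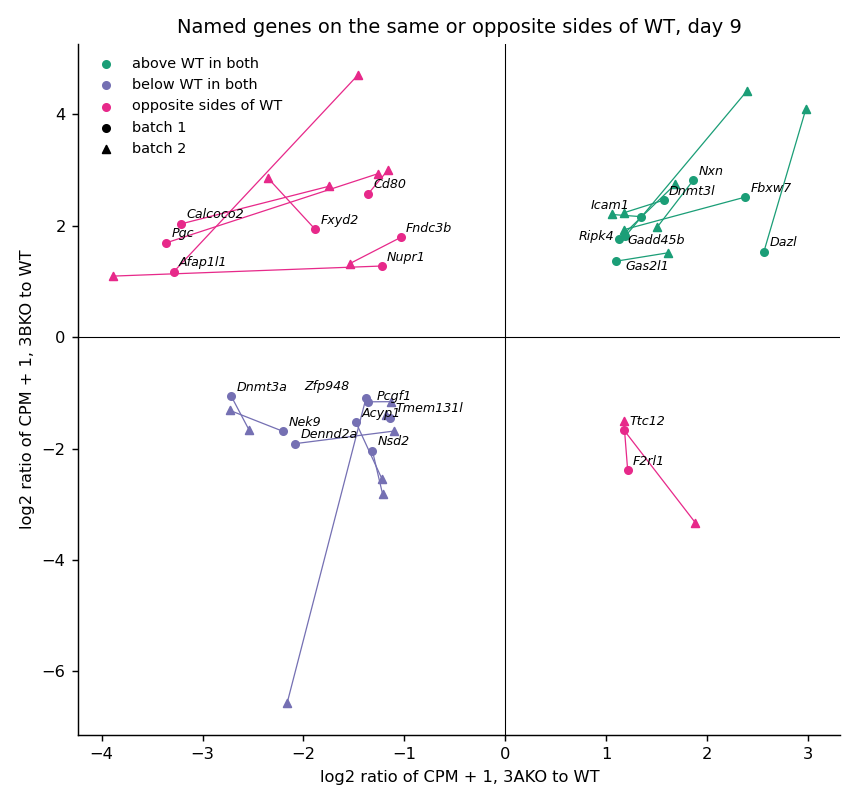
Each gene is a line from its batch 1 value (circle) to its batch 2 value (triangle), with the log2 ratio of 3AKO to WT on the x axis and of 3BKO to WT on the y axis. Green genes such as Dazl lie above WT in both mutants, violet genes such as Nek9 below it, and pink genes such as Calcoco2 and Ttc12 on opposite sides.

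Genes with the mutants on opposite sides of WT, by at least 1 log2 unit in each batch, numbered 10 (0.109% of 9135). Calcoco2, Fxyd2, Pgc, Cd80, Afap1l1, Nupr1 and Fndc3b were above WT in 3BKO and below it in 3AKO, while F2rl1 and Ttc12 were the other way round. F2rl1, a protease-activated receptor, had 6.9996 CPM in 3BKO, 60.7 in 3AKO and 25.4 in WT, with reads in 5, 41 and 35 cells. Ttc12, a dynein assembly factor, had 1.25, 30.01 and 10.2 CPM. Nupr1, a stress-induced nuclear protein, had 109, 20.1 and 58.4 CPM, but 56.2% of its 3AKO reads were in 1 cell. The remaining gene is an unnamed transcript.

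Day 3 was read by label for the genes called at day 9. In batch 1, of the 284 genes called higher in 3BKO that were detected at day 3, 53.2% had the same sign there and 13.03% were past 1, beside 50.9% and 4.24% of all genes. Of 401 called higher in 3AKO, 49.1% had the same sign and 8.48% were past -1, beside 49.1% and 3.52%. Zfp42 had 408 CPM in 3BKO, 555 in 3AKO and 552 in WT at day 3, and Pim2 100.8, 49.3 and 118, so neither showed its day 9 order. In batch 2 the same-sign shares were 38.9% and 58.8%, beside 41.2% and 58.8% of all genes, but there the day 3 labels went against the deleted gene (Dnmt3a had 335 CPM in cells labelled 3AKO and 12.8 in cells labelled 3BKO), and no direction is drawn from them.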

How the data were processed

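Reads were 75 bases long and single-end. Per the submitters' processing notes they passed through FastQC 0.11.2, Trim Galore 0.5.0, STAR 2.7.1a and featureCounts 1.6.1, with mm10 and GRCm38.p6 named as builds. The values are the raw read counts per gene and well that the authors deposited, neither normalized nor corrected for molecules. Whether counting used strand is not given in the sources used here, so genes that share exon bases are uncertain. Of 55228 gene names 97.0% were found in GENCODE vM21, which gave coordinates and exon overlaps. 26 columns that match no sample were not used. Results for a few genes are not reported here.

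Counts of the kept cells were summed per genotype, and per batch, and divided by their total to give CPM. With 1 sample per genotype edgeR's test was not run, in spite of the counts. The call rule is given with the first counts. Named genes were the 12 with the largest smaller batch ratio in each direction, 8 shared genes in each direction, all genes on opposite sides of WT, up to 4 called members of each list, Dnmt3a and Dnmt3b, leaving out unnamed models, pseudogenes, mitochondrial and Y-linked genes. Other genes, such as Fgf5, Klf4, Pecam1, Cdkn1a and list members given as not called, were chosen after their values were seen. The compared groups and the lists were chosen with earlier results of these data known.

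Alternatives were each batch alone, no or a stricter cell filter (100000 reads, 4000 genes, 25% mitochondrial), the mean of single-cell CPM, thinning to 50000 reads, another denominator, TMM factors (edgeR 4.0.16), DESeq2 1.42.0 size factors, pseudocounts of 0.1 and 10, detection in 10% or 40% of cells, and leaving out or not limiting the top cell. Leaving out cells low in Epi markers or high in 2-cell-like genes was added after seeing the data. No doublet caller was run, as 1 cell was sorted per well. R 4.3.3, Python 3.11.15, numpy 2.4.6, pandas 2.3.3 and scipy 1.17.1 were used. The call rule was run on simulated cells drawn independently, with no differences of plate, clone or cell state. That run therefore does not bear on such differences in these data.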

Additional observations from a re-analysis of the deposited data

Results flagged for a closer look

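For 9 named genes the mutants lay on opposite sides of WT in both batches, which is why they are listed, and the difference was not tested. Their log2 ratios of 3BKO to 3AKO were 5.32 for Afap1l1, 4.87 for Calcoco2, 4.65 for Pgc, 4.12 for Cd80, 4.09 for Fxyd2, 2.95 for Fndc3b and 2.38 for Nupr1. They were -2.95 for F2rl1 and -3.78 for Ttc12. Afap1l1 shares exon bases with an unnamed gene.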

How the results depend on the processing

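For the 87 named genes the log2 ratio of 3BKO to 3AKO was followed through the settings, and the 71 called between the mutants kept its direction in each. Their call required the same sign in each batch, so either batch alone could not change it, and the other settings reuse largely the same cells. Of the 16 called only against WT, 6 changed the sign of this ratio in some settings (Dazl, Dennd2a, Gas2l1, Nek9, Pcgf1 and Zfp948, 15 values). They were not called by this ratio, so it does not give their direction against WT. Of all 1392 values 190 moved by more than the spread between batches. The naive median stayed between 1.03 and 1.98 and the primed median between -1.24 and -2.93. Of 368 list medians 22 changed sign, in the germline, BMP, Wnt, S phase, glycolysis, Nodal, trophoblast, imprinted and retinoic acid lists. Counts in the order higher in 3BKO, higher in 3AKO, above WT in both, below WT in both and on opposite sides were 702, 861, 61, 124 and 48 in batch 1 alone, 1090, 1617, 127, 387 and 161 in batch 2 alone, and 164, 177, 3, 0 and 2 with a pseudocount of 10. A single batch has to pass 1 limit in place of 2. Detection in 40% of cells gave 222 higher in 3AKO, 2 above, 5 below and 5 opposite, and in 10% gave 18 below. The mean of single-cell CPM gave 6 above, of which 5 were among the 11, and thinning gave 4, of which 1 was. Leaving out the top cell gave 20 below and 18 opposite, and leaving out cells low in Epi markers gave 16 below. Where no reason is given, the cause was not tested. The share of calls that were higher in 3BKO was 43.9%, and 37.9 to 50.6% in the other settings. No paired analysis was possible because replicate numbers only name wells and no test was run. Depth limits sparse genes, and with 1 sample per genotype the spread between cultures is unknown.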
